A study of Sus scrofa with 6 samples.

Results

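Cells store surplus fatty acids as triglyceride in lipid droplets, and the genes followed here make the coat of those droplets and the enzymes that empty them. The set holds 10 of the 19670 gene models in the deposited table. There are 4 perilipins (PLIN2, PLIN3, PLIN4 and PLIN5), which coat the droplet surface, and HILPDA, a small protein of the droplet surface. The other members are PNPLA2 (adipose triglyceride lipase), its activator ABHD5, LIPE (hormone-sensitive lipase) and MGLL (monoglyceride lipase). PLIN2 takes up a pair of models, ENSSSCG00000005171 and ENSSSCG00000026749, which the deposited annotation matches to the same perilipin 2 protein. Of the 10 models, 2 were given by identifier, 6 were found by gene symbol and 2 by protein name, namely PLIN3 (ENSSSCG00000029581) as 47 kDa tail interaction protein and HILPDA (ENSSSCG00000016584) as hypoxia-inducible protein. The rule lists members by function and uses no measured value, although the members were chosen with earlier results of these data known.

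Triglyceride is broken down in steps. PNPLA2 removes the first fatty acid with the help of ABHD5, LIPE the second, and MGLL splits the remaining monoglyceride. Perilipins limit the access of the lipases to the droplet, and HILPDA binds and inhibits PNPLA2. PLIN2 is the coat protein of droplets in most tissues outside fat and a textbook target gene of the PPAR receptors, which bind fatty acids, while PLIN1 and PLIN4 are best known from fat cells and PLIN5 from tissues that burn fat, such as heart.

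RNA was measured in primary cells freed by enzymes from the external ear (auricular) cartilage of 1 pig, a Duroc x (Landrace x Large White) cross of 4 months with wild-type PPARD. For 24 h the cells received either GW0742, a synthetic compound that activates the nuclear receptor PPARD, or DMSO, in which it is dissolved, and each group has 3 libraries. Levels are given as CPM (counts scaled by TMM to a common library size) for a comparison of libraries and as RPKM (reads scaled by the length of the model and the depth of the library) for a comparison of genes. A change is called at an adjusted p under 0.05 in edgeR's quasi-likelihood test over all 14146 models deep enough to test. With 1 pig as the only source, and no label that names separate cultures, a p-value here covers the spread among these 6 libraries alone, and that spread may be technical.

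The libraries held between 13133894 and 16913742 estimated reads, so that 3 reads, taken as the floor, correspond to 0.178 to 0.230 CPM by library. No pair of libraries of a group agreed within sampling noise (chi-square per degree of freedom of at least 4.34). Of the chondrocyte markers, ACAN stood at a mean of 816 CPM, COL2A1 at 511 CPM and SOX9 at 43.7 CPM with DMSO, while MATN1 and CNMD had under 3 reads in every library. Summed over the 14 chondrocyte markers with a model, CPM ran from 2587 to 2750 in the DMSO libraries and from 2133 to 2305 in the GW0742 libraries. Of the 12 tested, edgeR called 1 lower (ACAN), and DESeq2, an alternative test, 2 (ACAN and COL11A1). COL11A1 stood at 921 and 758 CPM with DMSO and GW0742 (DESeq2 adjusted p = 0.00413, edgeR adjusted p = 0.114). Without overlap 4 of the 12 lay lower with GW0742, against 12.1% of all tested models. The sum of 8 fibroblast markers ran from 59291 to 69471 CPM over all libraries, and most of it was COL1A2. None of the 8 passed in edgeR, and 5 had an unadjusted p under 0.05 (over all tested models 7.93% higher and 8.91% lower). In DESeq2 LUM was called higher (1.57-fold, adjusted p = 0.00484) and THY1 lower (0.82-fold, adjusted p = 0.000197). The sum of the 4 skeletal muscle markers with a model ran from 412.8 to 451.2 with DMSO and from 327.0 to 409.7 CPM with GW0742. Most of this sum was DES, at means of 428 and 351 CPM, which did not pass (edgeR adjusted p = 0.181). The other markers of this list, ACTA1, CKM and TNNC2, stood at 5.26 CPM or less in every library.

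PLIN2 RNA was 2.23-fold higher with GW0742 when its models were counted together. HILPDA stood 1.53-fold higher without passing the test over all genes in edgeR. PLIN3 and the lipolysis genes PNPLA2, ABHD5, LIPE and MGLL did not pass, and PLIN4 and PLIN5 were at or near the floor in both groups. Of the 10 models 8 were deep enough to test, and 1 of these, ENSSSCG00000005171 of PLIN2, was called higher and 0 lower (3 higher and 0 lower at an unadjusted p under 0.05). The 3 were both PLIN2 models and HILPDA. Among all tested models edgeR called 26 higher (0.184%) and 11 lower (0.0778%), and 7.93% were higher and 8.91% lower at that unadjusted threshold. The median log2 fold change was 0.14 over the 8 tested members and -0.0015 over all tested models. PLIN2 enters the former median through both of its models. With PLIN2 taken as their sum (log2 1.16), it lay above 0 together with HILPDA (0.61) and MGLL (0.31). Below 0 were ABHD5 (-0.03), PNPLA2 (-0.15), LIPE (-0.16) and PLIN3 (-0.24). The middle value was then that of ABHD5, so the member median above 0 rested on counting both PLIN2 models.

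**Figure D1:**
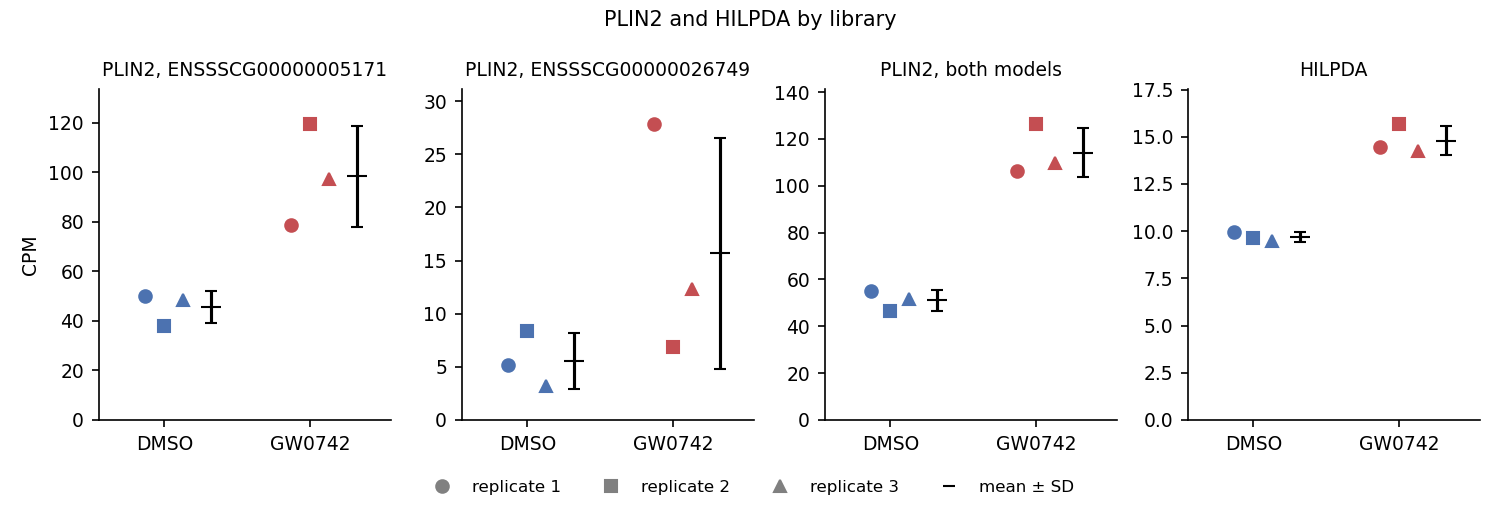
CPM of PLIN2 (each model, and both summed) and HILPDA in 3 DMSO and 3 GW0742 libraries, with symbols for replicate numbers and the mean ± SD beside them. The summed PLIN2 models and HILPDA lie apart between the groups, while ENSSSCG00000026749 overlaps and runs from 6.86 to 27.8 CPM with GW0742.

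The droplet coat is described first. PLIN2 summed over both models stood at 55.1, 46.4 and 51.8 CPM in DMSO replicates 1, 2 and 3, and at 106, 126 and 109.8 CPM in GW0742 replicates 1, 2 and 3. The groups did not overlap, and the lowest GW0742 library was well above the highest DMSO library. The means were 51.1 ± 4.4 CPM with DMSO and 114 ± 11 CPM with GW0742 (SD, n = 3). The log2 fold change was 1.16 ± 0.09 (SE), with a 95% interval of 0.95 to 1.37 and an adjusted p of 0.00199 in edgeR fitted with the models summed. That sum was called in each of 12 alternative fits, with adjusted p-values up to 0.0331. In the same contrast CPT1A, the gate for fatty acid entry into mitochondria, was 3.86-fold higher in the 1 model read here (ENSSSCG00000012880). The secreted lipase inhibitor ANGPTL4 was 8.81-fold higher.

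Taken apart, the PLIN2 models were less even. ENSSSCG00000005171, with a length of 1848 bases, stood at 49.9, 38.1 and 48.6 CPM with DMSO and at 78.6, 119 and 97.4 CPM with GW0742 (replicates 1, 2 and 3). It did not overlap between the groups, and it rose by a log2 fold change of 1.11 ± 0.16 (edgeR, adjusted p = 0.0395). Leaving out a library ended this call in each of the 6 cases, with adjusted p-values of 0.0553 to 0.139. It was also lost without a filter on low counts (0.119) and in limma on log2(RPKM + 1) and log2(RPKM + 0.1) (0.0974 and 0.102). ENSSSCG00000026749, with a length of 1497 bases, stood at 5.16, 8.34 and 3.18 CPM with DMSO and at 27.8, 6.86 and 12.3 CPM with GW0742. GW0742 replicate 2 lay below DMSO replicate 2, so this model overlapped, and it did not pass (log2 1.5 ± 0.51, edgeR adjusted p = 0.197). Without GW0742 replicate 1 its log2 fold change was 0.81 (adjusted p = 0.424).

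The models traded places within the groups. GW0742 replicate 2 had the highest value of ENSSSCG00000005171 and the lowest GW0742 value of ENSSSCG00000026749, and GW0742 replicate 1 had the reverse. In the DMSO group replicate 2 was lowest in the first and highest in the second. As a share of all estimated PLIN2 reads, ENSSSCG00000026749 held 9.38%, 17.96% and 6.13% in DMSO replicates 1, 2 and 3. With GW0742 it held 26.1% in replicate 1 (Wilson 95% interval 23.9% to 28.5% of 1390 reads), 5.43% in replicate 2 (4.53% to 6.51% of 2024 reads) and 11.25% in replicate 3. These shares differed between libraries of a group by more than counting error, which is all that the intervals cover. The SE of the log2 fold change was 0.16 for the first model, 0.51 for the second and 0.09 for the sum. Estimated counts can divide reads between models of 1 protein, and whether the division or the RNA differed between libraries was not tested.

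PLIN3, a perilipin that moves from the cytosol to young droplets, stood at 25.6, 27.9 and 33.4 CPM in the DMSO libraries and at 24.1, 21.6 and 28.0 CPM in the GW0742 libraries. The groups overlapped. Its log2 fold change was -0.24 ± 0.13, with a 95% interval of -0.53 to 0.06 (edgeR adjusted p = 0.401). That interval lies wholly below the interval of summed PLIN2, although the difference between these genes was not tested.

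PLIN4 and PLIN5 were hardly detected. PLIN4 (ENSSSCG00000013512) had between 3.37 and 4.24 estimated reads in each library, at or just above the floor. Its CPM ran from 0.225 to 0.240 with DMSO and from 0.249 to 0.306 with GW0742, from 3 reads after rounding in DMSO replicate 2 and 4 in the others. PLIN5 (ENSSSCG00000013513) had no reads in DMSO replicates 1 and 3 and GW0742 replicate 1, where the floor allows up to 0.178, 0.180 and 0.230 CPM. It had 2.00, 3.22 and 2.26 estimated reads in DMSO replicate 2 and GW0742 replicates 2 and 3. Neither was tested, and a change was not detectable at this depth.

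The make-up of the perilipin pool followed PLIN2. The summed RPKM of the 4 perilipins was 45.4, 41.8 and 47.9 with DMSO and 72.4, 81.0 and 75.0 with GW0742. PLIN2 held 62.7%, 56.8% and 54.6% of that sum in DMSO replicates 1, 2 and 3, and 78.1%, 81.7% and 75.3% in the GW0742 replicates. The PLIN3 share went from 41.8% ± 4.2 to 21.5% ± 3.2 (SD, n = 3). PLIN4 and PLIN5 each held under 1% of the sum in every library. The ratio of PLIN2 to PLIN3 in RPKM was 1.20 to 1.68 over the DMSO libraries and 3.07 to 4.52 over the GW0742 libraries. These shares are descriptions without a test. They describe RNA, not protein on the droplet, and PLIN1 was not analysed here.

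**Figure D2:**
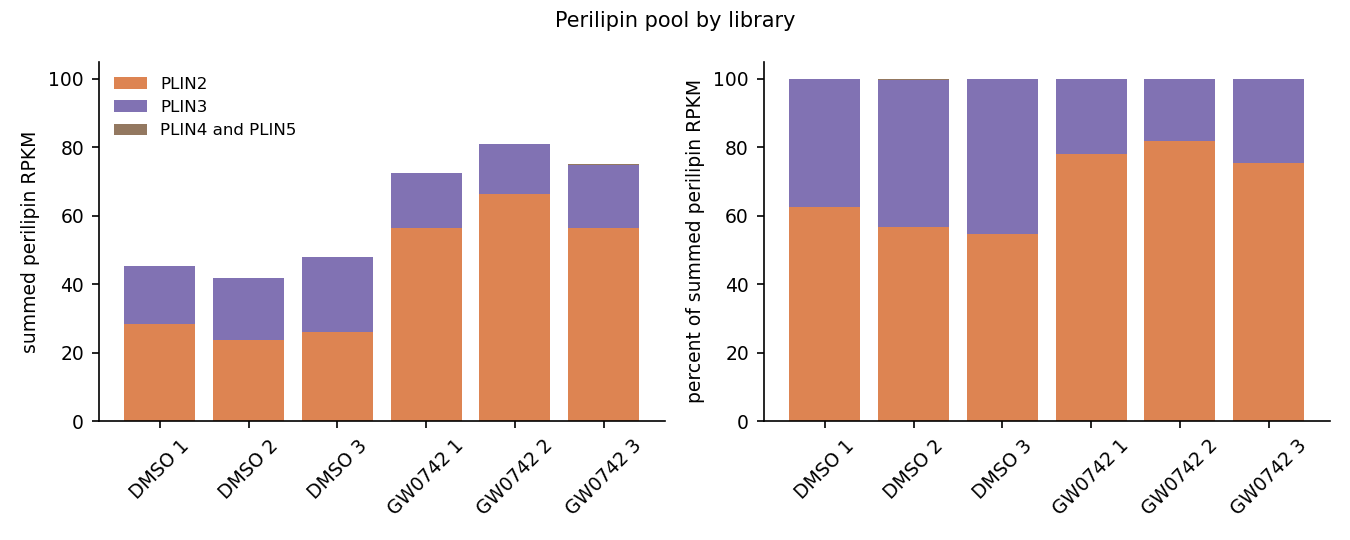
Summed RPKM of PLIN2 (both models), PLIN3, PLIN4 and PLIN5 in each library (left) and the percent held by each (right). PLIN2 holds 54.6% to 62.7% with DMSO and 75.3% to 81.7% with GW0742, and PLIN4 and PLIN5 are too thin to see.

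HILPDA stood at 9.97, 9.61 and 9.48 CPM in DMSO replicates 1, 2 and 3 and at 14.5, 15.6 and 14.2 CPM in GW0742 replicates 1, 2 and 3. The DMSO libraries lay close together and every GW0742 library lay above them. Means were 9.69 ± 0.26 and 14.8 ± 0.75 CPM (SD, n = 3), from 128 to 251 estimated reads per library. The log2 fold change was 0.61 ± 0.10, with an unadjusted 95% interval of 0.37 to 0.85, and did not pass in edgeR (adjusted p = 0.0651). DESeq2 called HILPDA (adjusted p = 0.0168), as did limma on log2(RPKM + 1) (log2 0.62, adjusted p = 0.0362) and on log2(RPKM + 0.1) (adjusted p = 0.0373), while leaving out a library gave edgeR adjusted p-values of 0.0724 to 0.245. Of all models DESeq2 called 1.36% higher and 1.56% lower (2.91% in all), and limma on log2(RPKM + 1) called 0.134% higher and 0.0212% lower.

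The HILPDA model is 189 bases long and its annotated type is pseudogene, although its annotation places it on lipid particles. Its neighbour GARIN1A (ENSSSCG00000016583) overlaps HILPDA in RefSeq's Sscrofa11.1 gene table. GARIN1A stood at 2.73, 1.35 and 1.98 CPM with DMSO and at 4.29, 3.49 and 2.74 CPM with GW0742. It too was higher with GW0742 without overlap, but only barely, as DMSO replicate 1 and GW0742 replicate 3 nearly touched. Its estimated reads, not scaled by depth, overlapped between the groups. The library protocol names no step that keeps the strand, and the part of shared reads in the HILPDA values was not tested.

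Among the 8 tested members, PLIN2 (ENSSSCG00000005171) and HILPDA were the 2 whose CPM did not overlap between groups, both with higher GW0742 values. Over all tested models 11.4% lay apart in that direction and 12.1% in the other.

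The lipolysis genes follow in the order of the reaction. PNPLA2 (ENSSSCG00000012841), which starts triglyceride breakdown, stood at 91.4, 104 and 99.7 CPM with DMSO and at 102, 75.6 and 88.6 CPM with GW0742. GW0742 replicate 1 lay within the DMSO range and the other two below it. The log2 fold change was -0.15 ± 0.11, with a 95% interval of -0.39 to 0.09 (edgeR adjusted p = 0.506). ABHD5 (ENSSSCG00000011297), the activator that PNPLA2 needs for full activity, stood at 8.13, 7.66 and 7.38 CPM with DMSO and at 6.28, 8.35 and 7.97 CPM with GW0742. The GW0742 libraries reached both below and above the DMSO range. Its log2 fold change was -0.03 ± 0.15, and its 95% interval of -0.38 to 0.32 corresponds to folds of 0.768 to 1.25 (edgeR adjusted p = 0.941).

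LIPE (ENSSSCG00000003018), which prefers diglyceride, stood at 13.9, 10.1 and 11.6 CPM with DMSO and at 8.42, 13.8 and 9.54 CPM with GW0742. The groups overlapped, and the log2 fold change was -0.16 ± 0.20 with a 95% interval of -0.62 to 0.30 (edgeR adjusted p = 0.727). MGLL (ENSSSCG00000024134), which releases the last fatty acid, stood at 13.4, 22.3 and 14.0 CPM with DMSO and at 21.9, 19.6 and 19.5 CPM with GW0742. DMSO replicate 2 was the highest of all 6 libraries, and the other DMSO libraries lay below every GW0742 library. The log2 fold change was 0.31 ± 0.19 with a 95% interval of -0.12 to 0.73 (edgeR adjusted p = 0.446). Without DMSO replicate 2 it was 0.57 (adjusted p = 0.0953), which did not pass either.

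**Figure D3:**
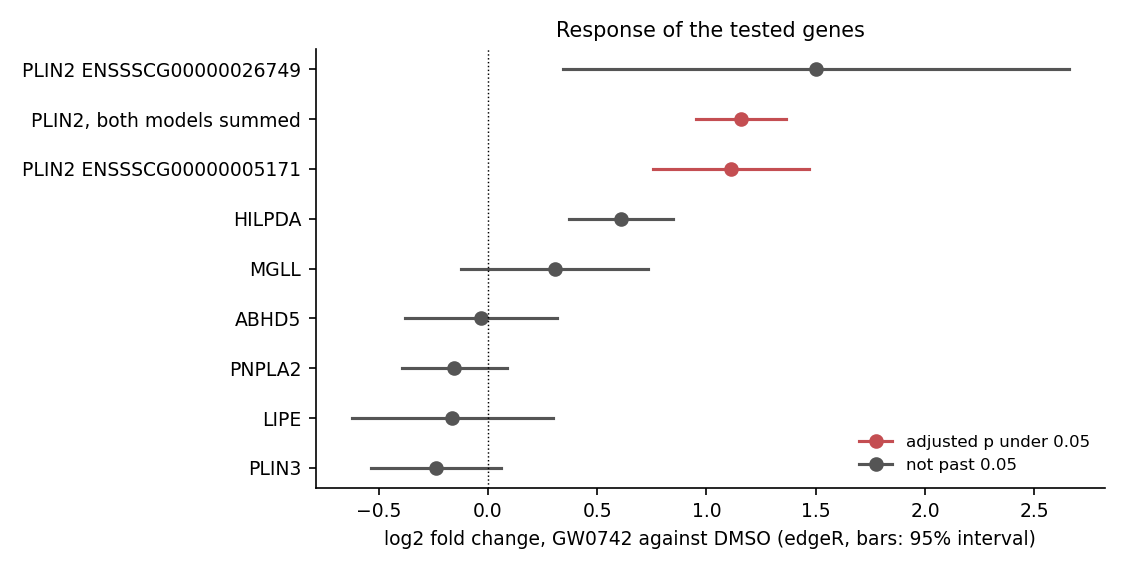
Log2 fold change of the 8 tested models and of both PLIN2 models summed, GW0742 against DMSO (edgeR), with unadjusted 95% intervals. ENSSSCG00000005171 and the sum are past an adjusted p of 0.05, the interval of HILPDA runs from 0.37 to 0.85, and those of PLIN3 and of the 4 lipolysis genes include 0.

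Levels per length gave an order of the genes. With DMSO, HILPDA had the highest RPKM (51.4 ± 2.1), on a model so short that its value per length is uncertain. It was followed by PNPLA2 (41.2 ± 2.1), PLIN2 with both models summed (26.1 ± 2.4), PLIN3 (18.9 ± 2.5), MGLL (4.39 ± 1.27), LIPE (3.49 ± 0.62) and ABHD5 (1.79 ± 0.11), as mean ± SD of RPKM with n = 3. PLIN4 and PLIN5 came last, with RPKM values under 0.11 in every library. Neighbours in this order did not overlap between DMSO libraries, apart from MGLL with LIPE and PLIN4 with PLIN5.

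With GW0742 PLIN2 stood at 56.5, 66.2 and 56.5 RPKM and PNPLA2 at 42.8, 32.9 and 37.4 RPKM. PLIN2 was thus the lower of these genes in every DMSO library and the higher in every GW0742 library. PNPLA2 exceeded its activator ABHD5 in RPKM in all 6 libraries, where ABHD5 ran from 1.47 to 2.01.

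**Figure D4:**
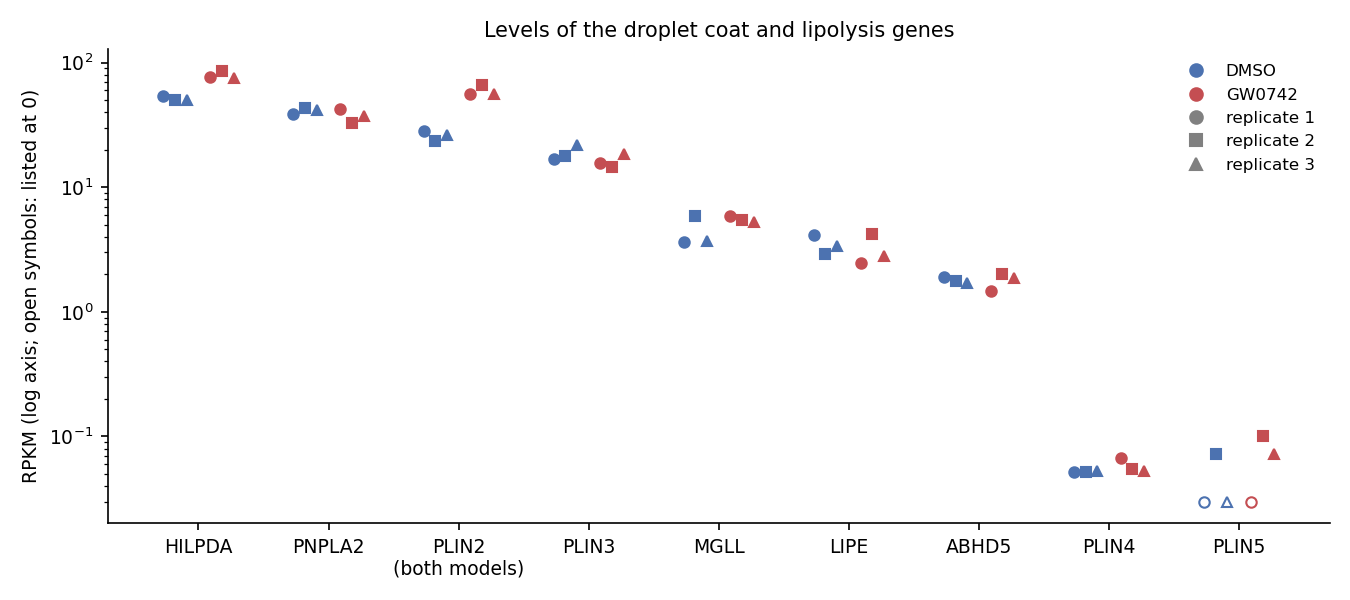
RPKM on a log axis of the droplet coat and lipolysis genes in each library, with genes in the order of their DMSO mean and PLIN2 as the sum of both models. Levels span from HILPDA at 50.1 to 86.1 down to PLIN5, which is listed at 0 in 3 libraries (open symbols, placed at the foot of the plot).

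The wider pathway was read from 4 lists, whose genes were looked up by symbol alone. In these lists 82 of 108 symbols had a model other than the members and 69 were tested. None of the 69 passed in either direction in edgeR, and 14 had an unadjusted p under 0.05, against 7.93% higher and 8.91% lower over all tested models at that threshold. DESeq2 and limma called none of them either. Their median log2 fold change was -0.0080, and 33 of the 69 values were above 0. Of the 69, 12 lay higher and 13 lower with GW0742 without overlap (36.2% in all), against 11.4% higher and 12.1% lower (23.4% in all) over all tested models.

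Of 23 tested genes among other droplet proteins, 8 had log2 values above 0 and the median was -0.06. BSCL2 (seipin, which shapes young droplets) stood at 64.2 ± 2.7 and 52.1 ± 4.6 CPM with DMSO and GW0742 (edgeR adjusted p = 0.128). LSS, a sterol enzyme found on droplets, stood at 63.1 ± 3.3 and 76.1 ± 4.2 CPM (edgeR adjusted p = 0.127). ACSL3, which activates fatty acids for droplet growth, stood at 26.6 ± 0.70 and 32.9 ± 3.4 CPM (edgeR adjusted p = 0.164). G0S2, a protein inhibitor of PNPLA2 named here after its values were seen, stood at only 0.60 and 0.90 CPM (edgeR adjusted p = 0.433). CIDEC, a droplet fusion protein of fat cells, was too low to test.

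Of 15 tested genes of triglyceride synthesis, 9 had log2 values above 0 and the median was 0.06. SOAT1, which makes cholesteryl esters, stood at 28.4 ± 0.30 and 34.6 ± 3.1 CPM with DMSO and GW0742 (edgeR adjusted p = 0.165). AGPAT1, which acylates lysophosphatidic acid, stood at 134 ± 9.9 and 118 ± 2.1 CPM (edgeR adjusted p = 0.231), and GPAT3, which starts glycerolipid synthesis, at 18.4 ± 0.73 and 20.8 ± 1.7 CPM (edgeR adjusted p = 0.379).

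Of 23 tested genes of other lipolysis and its control, 12 had log2 values above 0 and the median was 0.0052. Subunits of protein kinase A, which phosphorylates perilipins and LIPE, lay on both sides. The catalytic subunit PRKACA stood at 63.4 ± 1.4 and 52.6 ± 2.2 CPM (edgeR adjusted p = 0.11) and the regulatory subunit PRKAR1A at 182 ± 4.1 and 215 ± 20 CPM (edgeR adjusted p = 0.173). LIPG, an endothelial-type lipase of lipoproteins, stood at 172 ± 23 and 213 ± 14 CPM (edgeR adjusted p = 0.171).

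Of 8 tested genes of fatty acid uptake and binding, 4 had log2 values above 0 and the median was -0.01. ACSL5, an acyl-CoA synthetase, stood at 42.6 ± 1.4 and 50.9 ± 0.77 CPM (edgeR adjusted p = 0.124). The fatty acid transporter SLC27A4 stood at 40.6 ± 0.19 and 44.3 ± 2.0 CPM (edgeR adjusted p = 0.388), and the lipoprotein receptor VLDLR at 283 ± 9.2 and 260 ± 16 CPM (edgeR adjusted p = 0.37). CD36, the fatty acid translocase, was too low to test. GPAT3, SLC27A4 and VLDLR had unadjusted p-values of 0.0901, 0.0946 and 0.0845, and VLDLR overlapped between the groups.

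**Figure D5:**
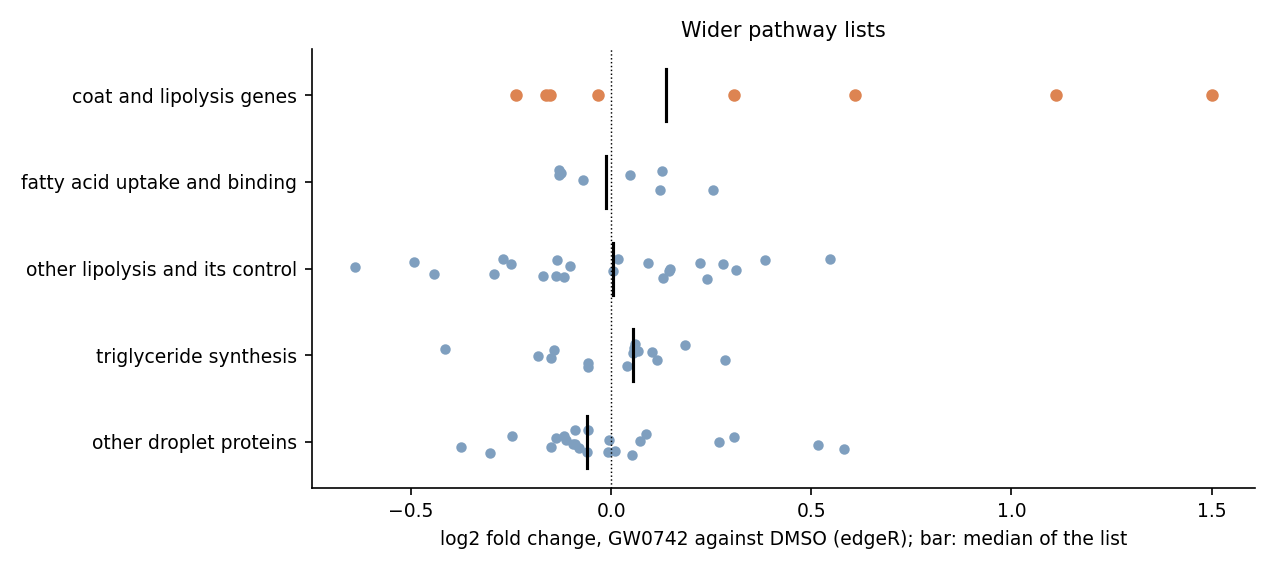
Log2 fold changes (edgeR, GW0742 against DMSO) of the tested genes of the 4 pathway lists and of the 8 tested coat and lipolysis models, with a bar at each median. The values of the pathway lists run from -0.64 to 0.58, and both PLIN2 models and HILPDA lie above that range.

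Markers of other cell types were read in the same libraries, since RNA from more cells of a type and more RNA per cell cannot be told apart in bulk samples. Of 14 adipocyte markers 9 had a model by symbol and none of the 5 tested passed in edgeR (0 at an unadjusted p under 0.05, and 0 in DESeq2). Their summed CPM ran from 10.8 to 12.3 with DMSO and from 11.3 to 14.3 with GW0742, LEP had under 3 reads in every library, and ADIPOQ, FABP4 and LPL were not analysed here. CIDEA had no model by symbol. ENSSSCG00000024644, which has its protein name and is outside these counts, stood at 1.27 and 1.26 CPM with DMSO and GW0742 (edgeR adjusted p = 0.995). Of 12 macrophage markers 10 had a model, their summed CPM ran from 23.8 to 27.9 and from 26.4 to 30.8, and LYZ had under 3 reads in every library. Most of that sum was CD14, at 19.5 to 26.1 CPM over the libraries, and neither of the 2 tested markers passed. Both sums overlapped between the groups, but some low markers did not. The macrophage genes CSF1R, MSR1 and TYROBP, all under 1 CPM and not tested, were higher in every GW0742 library. TYROBP stood at 0.15 to 0.30 CPM in the DMSO libraries and 0.44 to 0.69 CPM in the others. MSR1 lay under the floor in every DMSO library, at 0.06 to 0.15 CPM. FCER1G (1.18 and 0.25 CPM with DMSO and GW0742) and PTPRC (0.19 and 0.18 CPM) had lower GW0742 means but overlapped. CD68, CD14, ITGAM and MARCO overlapped as well. Of the adipocyte markers too low to test, RETN was higher and CIDEC lower in every GW0742 library, but both directions rest on a few reads. RETN stood under the floor with DMSO (0.12 to 0.15 CPM) and at it with GW0742 (0.19 to 0.23 CPM). CIDEC stood at 0.30 to 0.53 CPM with DMSO and at or under the floor with GW0742 (0.08 to 0.19 CPM).

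The endothelial markers lay apart in their sum. The summed CPM of the 8 with a model was 115, 143 and 124 with DMSO and 172, 186 and 145 with GW0742 (replicates 1, 2 and 3), and 6 of the 7 tested had log2 values above 0. Most of the sum was CLDN5 and ERG, while the median log2 fold change over the 7 tested was 1.16, close to that of summed PLIN2. PECAM1 stood 2.24-fold, KDR 2.95-fold, TIE1 2.93-fold and ESAM 3.11-fold higher. CLDN5 was 1.35-fold and EGFL7 1.31-fold higher, and ERG stood at 0.96 of its DMSO level. KDR, TIE1 and ESAM had low DMSO means of 1.42, 0.57 and 1.40 CPM, and TIE1 overlapped between the groups. None of the 7 tested passed in edgeR, 6 had an unadjusted p under 0.05 and DESeq2 called 2 higher (PECAM1 and KDR). GW0742 replicate 2 was the highest library in this sum, as it was for summed PLIN2 and for HILPDA. Among the DMSO libraries replicate 2 was the highest in this sum (143 CPM) and the lowest for summed PLIN2 (46.4 CPM). Among the GW0742 libraries replicate 3 was the lowest in this sum and for HILPDA, and replicate 1 for summed PLIN2 (106 CPM). The part of these cell types in the PLIN2 and HILPDA values was not tested.

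The genes with symbols whose library profile was most like that of ENSSSCG00000005171 were found among 8769 models with a mean of at least 1 CPM. Likeness was the root mean square difference over the 6 libraries of log2 CPM from the DMSO mean. The closest were MT1X (a metallothionein, 0.18), NYX (nyctalopin, 0.21), TINAGL1 (a matrix protein, 0.24), VCAM1 (a leukocyte adhesion molecule, 0.24) and ESM1 (a proteoglycan of endothelium, 0.25). MT1X and TINAGL1 shared its lowest and highest libraries, with TINAGL1 at 1.28 CPM in DMSO replicate 2 and 6.23 CPM in GW0742 replicate 2. VCAM1 rose (log2 1.04 ± 0.15, edgeR adjusted p = 0.0419), and the others did not pass. All but VCAM1 stood between 1.26 and 6.23 CPM, so their profiles rest on few reads, and the search used the contrast itself, so that it describes likeness and is no test.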

How the data were processed

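Gene expression was read from 6 libraries of primary pig ear cartilage cells, 3 with DMSO and 3 with GW0742. The deposited library tables hold estimated counts of reads and RPKM values made by the authors, per the file headers, and the series table holds the same RPKM values. The genome build was Sscrofa 10.2, per the submitters' processing notes, and the aligner, the counter and the gene annotation were not given in the sources used here. Symbols came from a gene name table (11147 models) and from protein and pathway identifiers in RefSeq's Sscrofa11.1 table (471 models).

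Estimated counts were rounded to whole numbers. The test was edgeR's quasi-likelihood test (version 4.0.16, R 4.3.3), two-sided and with no block, after TMM scaling and a filterByExpr filter by group with a minimum count of 10. Benjamini-Hochberg adjustment ran over all tested models. The SE is the log2 fold change divided by the root of F, and its interval uses the t distribution with edgeR's degrees of freedom. PLIN2 was also fitted with its models summed. Alternatives were DESeq2 1.42.0, limma 3.58.1 on log2(RPKM + 1) and log2(RPKM + 0.1), median-of-ratios size factors, no filter beyond 1 read, each library left out, a replicate block and an adjusted p under 0.01. Fits of the summed PLIN2 under the alternatives and the lipid particle annotation were added after seeing the data. The scripts' tests were checked on simulated data.

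Members and lists were chosen with earlier results of these data known. The rule for named genes takes all members, from each pathway list any gene past the threshold and the 3 with the lowest p, PPARD, ANGPTL4, PDK4, CPT1A and CAT where a result turns on them, and the 5 models with a symbol most like ENSSSCG00000005171. Other names were chosen after values were seen. Of the list symbols, those without a model were not analysed here. No sequences are printed.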

Additional observations from a re-analysis of the deposited data

How the results depend on the processing

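Summed PLIN2 kept its direction and its call in 12 alternatives, with log2 values of 1.08 to 1.22 when a library was left out. Over all log2 fold changes of members and named pathway genes, 237 values stayed on their side of the threshold, 10 lost the call, all of them ENSSSCG00000005171, 3 gained it, all of them HILPDA, and 2 turned. Those 2 were ABHD5 without DMSO replicate 1 (0.0062) and without GW0742 replicate 1 (0.082, with -0.11 as the lowest value when a library was left out), neither of which passed. Members called higher were 1 in edgeR, 2 in DESeq2 (PLIN2 and HILPDA), 0 without a filter and 0 with any library left out, with 2 to 4 at an unadjusted p under 0.05. Both limma fits called 1, HILPDA in place of PLIN2. Members lower and pathway genes in either direction stayed at 0 throughout, with 0 to 1 members lower and 4 to 9 pathway genes in a direction at an unadjusted p under 0.05. In edgeR with all 6 libraries 7.93% of all tested models were higher and 8.91% lower at that threshold.

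Models higher were 26 and lower 11 over all genes. DESeq2 gave 198 and 227, with all 37 among them (cause not tested). With no filter there were 13 and 3, with more models tested. Limma gave 3 lower on log2(RPKM + 1), and 17 higher and 4 lower on log2(RPKM + 0.1); the cause was not tested. At an adjusted p under 0.01, 6 were higher and 0 lower (1260 lower at the unadjusted threshold of 0.05). With a library left out, so with fewer samples in the fit, 6 to 54 models were higher and 0 to 47 lower (842 to 1257 lower at that unadjusted threshold).

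With the replicate number as a block there were 10 models higher and 0 lower (1102 lower at an unadjusted p under 0.05) and 0 members higher, while summed PLIN2 was called (log2 1.16, adjusted p = 0.0331). Same-numbered libraries did not deviate together (r of 0.0054, -0.032 and -0.10 across genes), and not every library correlated best with its own number. Pairing by number was thus not seen. All r values lay between -0.10 and 0.068, with 3 libraries in each group, so this check cannot exclude it. In estimated reads not scaled by length, the PLIN2 share of the perilipins was 63.6% with DMSO and 81.9% with GW0742. Depth limits PLIN4 and PLIN5, which lie at the floor.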

Other observations

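The deposited annotation marks 48 models with the cellular component lipid particle, 8 of them members. This list was taken up after the data were seen and has no test. Of the other 40 models 35 were tested and 0 passed in edgeR, with 10 at an unadjusted p under 0.05 (7.93% of all tested models were higher and 8.91% lower at that threshold) and a median log2 fold change of 0.0084. DESeq2 called 1 higher and 1 lower. The lower was CAV1 (caveolin-1, a membrane protein of caveolae that also reaches droplets), at 304 and 228 CPM with DMSO and GW0742 (log2 -0.42, DESeq2 adjusted p = 0.000138, edgeR adjusted p = 0.0756). The higher was ENSSSCG00000028960, a model with the protein name of lanosterol synthase, at 47.1 and 65.7 CPM (log2 0.48, DESeq2 adjusted p = 0.0142, edgeR adjusted p = 0.122). LSS is a further model of that protein name, so the division of reads between these models is uncertain. In 6 of the 35 GW0742 was higher without overlap and in 6 lower, against 11.4% and 12.1% of all tested models.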
